A study of Mus musculus with 84 samples.

Results

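The Ggta1 locus was chosen by H3K27me3: among 21851 protein-coding genes it was the 1 gene whose promoter carried an H3K27me3 peak in every control library and in no library from mice that had ever been fed a high-fat diet (HFD). It is 1 gene of those 21851, with the 100 kb on either side of it. The histone post-translational modifications (hPTMs) H3K4me3, H3K27ac, H3K4me1 and H3K27me3 were mapped by CUT&Tag (antibody-guided transposase cutting at chromatin that carries a mark) in nuclei from the epididymal adipose tissue (epiAT) of male AdipoERCre x NuTRAP mice (background C576BL6 as the labels spell it). In these mice a tamoxifen-inducible Cre driven by the adiponectin promoter switches on a reporter that tags the nuclei of adipocytes. Tissue from every group, controls included, therefore carried both transgenes and had been exposed to tamoxifen. By the study's methods, biotin-tagged nuclei were pulled down on streptavidin beads before CUT&Tag.

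Chow-fed controls were 18 (C), 26 (CC_s), 31 (CC_l) or 39 weeks old (CCC). H mice were 18 weeks old after 12 weeks of HFD, and HH mice were 31 weeks old after 25 weeks of HFD. HC mice were 26 weeks old and had 12 weeks of HFD followed by 8 weeks of chow, and HHC mice were 39 weeks old and had 25 weeks of HFD followed by 8 weeks of chow. The age-matched pairs were therefore H and C, HC and CC_s, HH and CC_l, and HHC and CCC, and H, HC, HH and HHC are called diet groups here. The 84 libraries gave 2 or 3 per group and mark, that is 10 diet and 10 control libraries for H3K27me3, 11 and 10 for H3K4me3, 12 and 9 for H3K27ac, and 12 and 10 for H3K4me1. Libraries of different marks with the same group and number are stated to come from one fat depot, so the marks do not add independent animals.

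Ggta1 encodes α-1,3-galactosyltransferase, a Golgi enzyme that places a terminal galactose on N-acetyllactosamine and so makes the α-Gal epitope of most mammals, which humans, apes and Old World monkeys lack. H3K27me3 is laid down by Polycomb repressive complex 2 and is found at genes that are kept silent. H3K4me3 marks promoters, H3K4me1 marks enhancers and the flanks of promoters, and H3K27ac marks promoters and enhancers that are active.

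Ggta1 (ENSMUSG00000035778.17) lies on the minus strand at chr2:35400179-35463231 (GRCm38, GENCODE M21), a span of 63053 bp. Its main transcript has 9 exons and starts at base 35461449. In the basic annotation coding transcripts start at 5 sites, which gave 3 promoter windows of 2000 bp on either side. The main window (chr2:35459249-35463449) holds exon 1, which precedes the start codon. The second (chr2:35430633-35434633) holds exon 2, and the third (chr2:35421327-35425327) lies over exon 3 with the start codon, where 2 transcript models begin. Between the first and second windows lie 24615 bp of intron 1 (chr2:35434634-35459248).

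The sequences below come from the main promoter window and from intron 1, read 5′ to 3′ on the minus strand of GRCm38.p6. The first is the RefSeq promoter of the gene, a window of 300 bp that ends just after the start, at chr2:35461400-35461699, with capitals on its only copy of GGGCGG, the GC box, 17 to 22 bp before the start. It does not reach chr2:35461794-35462350, the stretch under H3K27me3 in every control library. The second is the middle 300 bp of the intron 1 stretch with the most H3K27ac libraries (chr2:35452473-35452772), with CG dinucleotides in capitals.
Ggta1 promoter: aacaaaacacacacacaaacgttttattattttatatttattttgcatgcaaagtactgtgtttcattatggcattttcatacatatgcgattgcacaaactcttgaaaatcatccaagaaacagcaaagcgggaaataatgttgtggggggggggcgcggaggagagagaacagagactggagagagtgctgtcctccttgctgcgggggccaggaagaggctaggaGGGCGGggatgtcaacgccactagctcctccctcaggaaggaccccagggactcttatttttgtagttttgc
Intron 1 stretch: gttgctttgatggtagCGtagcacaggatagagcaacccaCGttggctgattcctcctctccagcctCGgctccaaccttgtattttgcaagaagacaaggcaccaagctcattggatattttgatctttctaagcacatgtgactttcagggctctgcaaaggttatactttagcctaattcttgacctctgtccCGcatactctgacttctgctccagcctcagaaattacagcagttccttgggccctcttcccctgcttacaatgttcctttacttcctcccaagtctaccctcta
The RefSeq promoter of Ggta1 had 46.7% G+C against a median of 52.7% over 32851 RefSeq promoters of the same length, and 8 CG dinucleotides against a median of 7. GGGCGG on either strand occurred in 35.7% of those promoters.

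The peak at the Ggta1 promoter lay close to the start site and was narrow in most controls. All H3K27me3 values at this locus are given as a description, with no test, since the gene was selected on them. The peak at the main window was 697, 997 and 683 bp wide in the 3 C libraries, and 1058 and 1019 bp in CC_s 1 and CC_s 2. In CC_s 3 there were 2 peaks, of which the one nearer the start was 706 bp wide. It measured 4218 and 2373 bp in CC_l and 1046 and 1199 bp in CCC. The peak was thus wider in the 4 controls of the 25-week cohort (median 1786 bp, 1046 to 4218 bp) than in most of the 6 of the 12-week cohort (median 851 bp, 683 to 1058 bp). The wide peaks were those of CC_l, while the CCC peaks were close in width to those of CC_s 1 and CC_s 2. Over the whole list the median peak width was 1856 bp in CC_l 1 and 1334 bp in CC_l 2, against 1273 and 1259 bp in CCC. The part of list-wide peak width in this difference was not tested. Ranked by total signal within its own library, the peak stood between the top 9.10% and the top 79.5% of all H3K27me3 peaks (median 42.9%), so in several controls it was one of the weaker peaks.

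The control peaks shared a core of 557 bp, chr2:35461794-35462350, from 345 to 901 bp upstream of the main start site. This core lies outside every coding transcript. A non-coding transcript of the gene starts 1782 bp upstream of the main start site, and 551 of the 557 bp of the core lie in its first intron and 6 bp in its first exon (chr2:35462345-35463231).

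**Figure D1:**
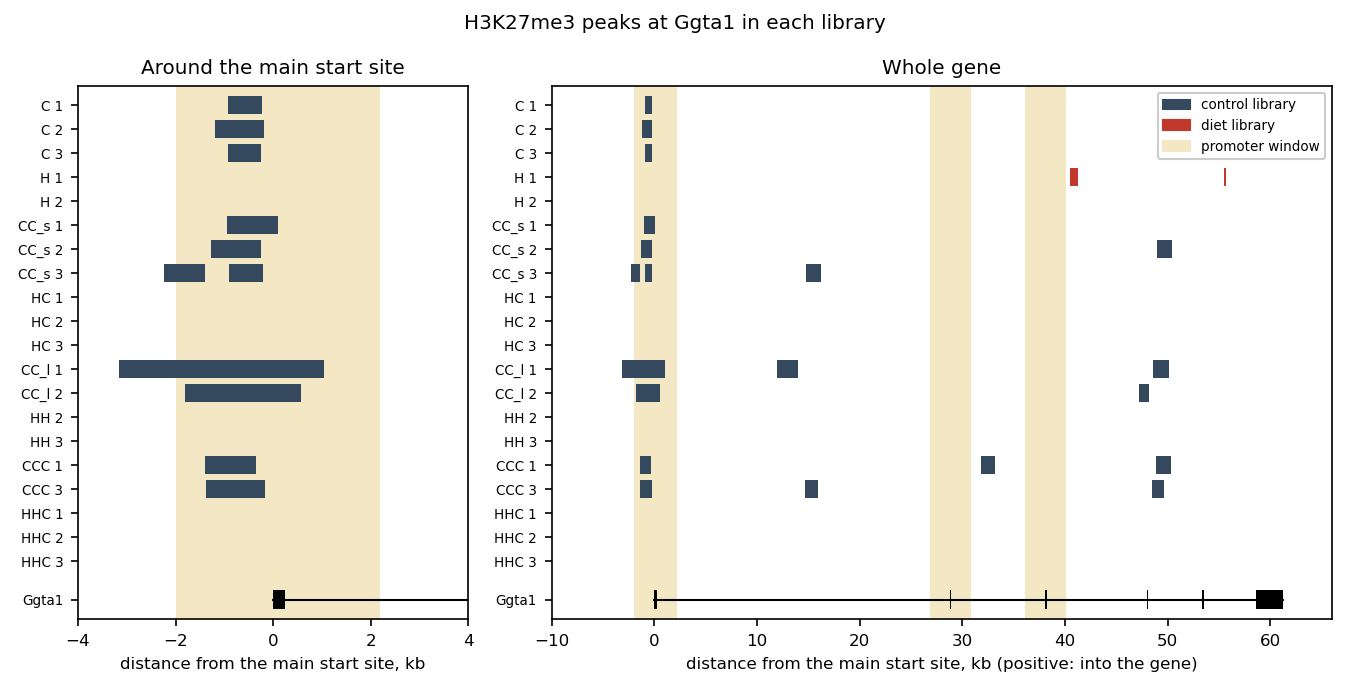
H3K27me3 peaks at Ggta1 in each of the 20 libraries (rows), plotted as bars against distance from the main start site in kb, around that site on the left and over the whole gene on the right, with controls in dark blue, diet libraries in red, promoter windows shaded and exons in black. All 10 controls have a peak just upstream of the start site and no diet library has one, and the only diet peaks in the gene are the 2 of H 1.

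None of the 10 diet libraries had an H3K27me3 peak in any Ggta1 promoter window. The nearest H3K27me3 peak to the main window lay 38.3 kb away in H 1, 83.9 kb in H 2, and 83.2, 209 and 87.3 kb away in HC. It lay 80.5 and 17.1 kb away in HH, and 50.2, 82.8 and 86.2 kb away in HHC. H 1 was the only diet library with H3K27me3 anywhere in the gene. One of its 2 peaks was 149 bp wide, and the other, 740 bp wide at chr2:35420218-35420957, ended 369 bp from the third promoter window. In HC 2, whose list covers only 8.54 Mb, the absence of a peak says least.

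Promoters with H3K27me3 in every control and no diet library of a pair made up 1.61% of the 21851 genes for H against C, 0.828% for HC against CC_s, 0.943% for HH against CC_l and 0.732% for HHC against CCC. Ggta1 was in each of these sets by its choice, and it was the only gene, 0.00458%, with that pattern over all 20 libraries. Just outside the rule stood 5 genes that differed from Ggta1 in 1 of the 20 libraries. Rcsd1 on chromosome 1, B230104I21Rik on chromosome 4 and Rftn1 on chromosome 17, the gene of a lipid raft protein, had the mark in 9 of 10 control and 0 of 10 diet libraries. Olfr47 on chromosome 6, an olfactory receptor gene, and Gm10160 on chromosome 7 had it in 10 of 10 and 1 of 10. A further 15 genes differed in 2 libraries, the first in genomic order being Cdh7 on chromosome 1, a cadherin gene, with 10 of 10 and 2 of 10.

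The size of the H3K27me3 lists differed between groups in a way that ran with diet in the 12-week cohort and not in the 25-week cohort. The lists covered 43 to 64.1 Mb in C against 16.9 and 20 Mb in H, and 43.2 to 60.5 Mb in CC_s against 8.54 to 36.3 Mb in HC. In the other cohort they covered 69.3 and 110 Mb in CC_l against 50.1 and 101 Mb in HH, and 61.4 and 70.4 Mb in CCC against 78.0 to 82.9 Mb in HHC. The share of genes with promoter H3K27me3 was 13.8 to 27.1% in control and 10.3 to 26.0% in diet libraries. With every list trimmed to the same number of peaks, the Ggta1 promoter held H3K27me3 in 8 of 10 controls and 0 of 10 diet libraries. Trimming cannot add a peak to a diet library, and the part of list length in the H3K27me3 calls was not tested.

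Away from the promoter windows, H3K27me3 peaks lay inside the gene in 6 of 10 control libraries and, among diet libraries, in H 1. Intron 1 carried a peak in CC_s 3 (1438 bp), CC_l 1 (2050 bp) and CCC 3 (1298 bp), and in 0 of 10 diet libraries. In each of the 1 kb bins from 48 to 50 kb into the gene a peak was present in 4 of 10 control and 0 of 10 diet libraries. The next protein-coding gene upstream was Dab2ip, which encodes a Ras GTPase-activating protein. Some libraries had H3K27me3 peaks nearer than Dab2ip. They lay 33 to 38 kb from the start site in CC_s 1 and CCC 1, and 17.1 and 50.2 kb from the main window in HH 3 and HHC 1. The first promoter window of Dab2ip (chr2:35556266-35560266) was marked in 10 of 10 control and 7 of 10 diet libraries, with HHC at 3 of 3, HH at 2 of 2, HC at 2 of 3 and H at 0 of 2. Its second window was marked in 8 of 10 control and 9 of 10 diet libraries, so most diet libraries kept H3K27me3 at Dab2ip. On the other side, the single promoter of Stom, the gene of the membrane protein stomatin, had H3K27me3 in 0 of 20 libraries.

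The same base pairs were not empty in the controls' other libraries. H3K4me3 touched the core in 7 of 10 control libraries and covered it wholly in 6. Of the 10 combinations of control group and number with libraries of both marks, 7 had H3K27me3 and H3K4me3 peaks on the core and 3, all CC_s, had H3K27me3 alone. Of the 10 such diet combinations, 10 had H3K4me3 alone. H3K27ac touched the core in 7 of 12 diet and 2 of 9 control libraries, and H3K4me1 in 5 of 12 and 1 of 10. Each library is a mixture of nuclei, so peaks of both marks on the same base pairs do not show that 1 nucleus carried both.

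At the main window H3K4me3 peaks were found in every library of C, HC, CC_l, HH, CCC and HHC, in 2 of the 3 from H and in 0 of the 3 from CC_s. That is 10 of 11 diet and 7 of 10 control libraries, so occupancy of this window by H3K4me3 was common in both. HC against CC_s was the 1 pair in which every diet and no control library had it, a pattern shown by 0.320% of all genes in that pair. The second window, at exon 2, held H3K4me3 in 7 of 11 diet and 2 of 10 control libraries, and the third in 1 of 11 and 0 of 10.

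H3K27ac and H3K4me1 were much rarer at the promoters of control libraries. The main window held H3K27ac in 7 of 12 diet libraries (all HH and HHC libraries, HC 3 and no H library) and in 2 of 9 controls, 1 each in CC_l and CCC. It held H3K4me1 in 8 of 12 diet and 1 of 10 control libraries. The second window held H3K27ac in 6 of 12 and 1 of 9, and H3K4me1 in 8 of 12 and 0 of 10. All 3 HH and no CC_l library had H3K4me1 at a Ggta1 promoter, as did 2.00% of all genes in that pair. Peaks in the third window were found in 25-week diet libraries, in 1 of 12 for H3K27ac and 2 of 12 for H3K4me1.

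**Figure D2:**
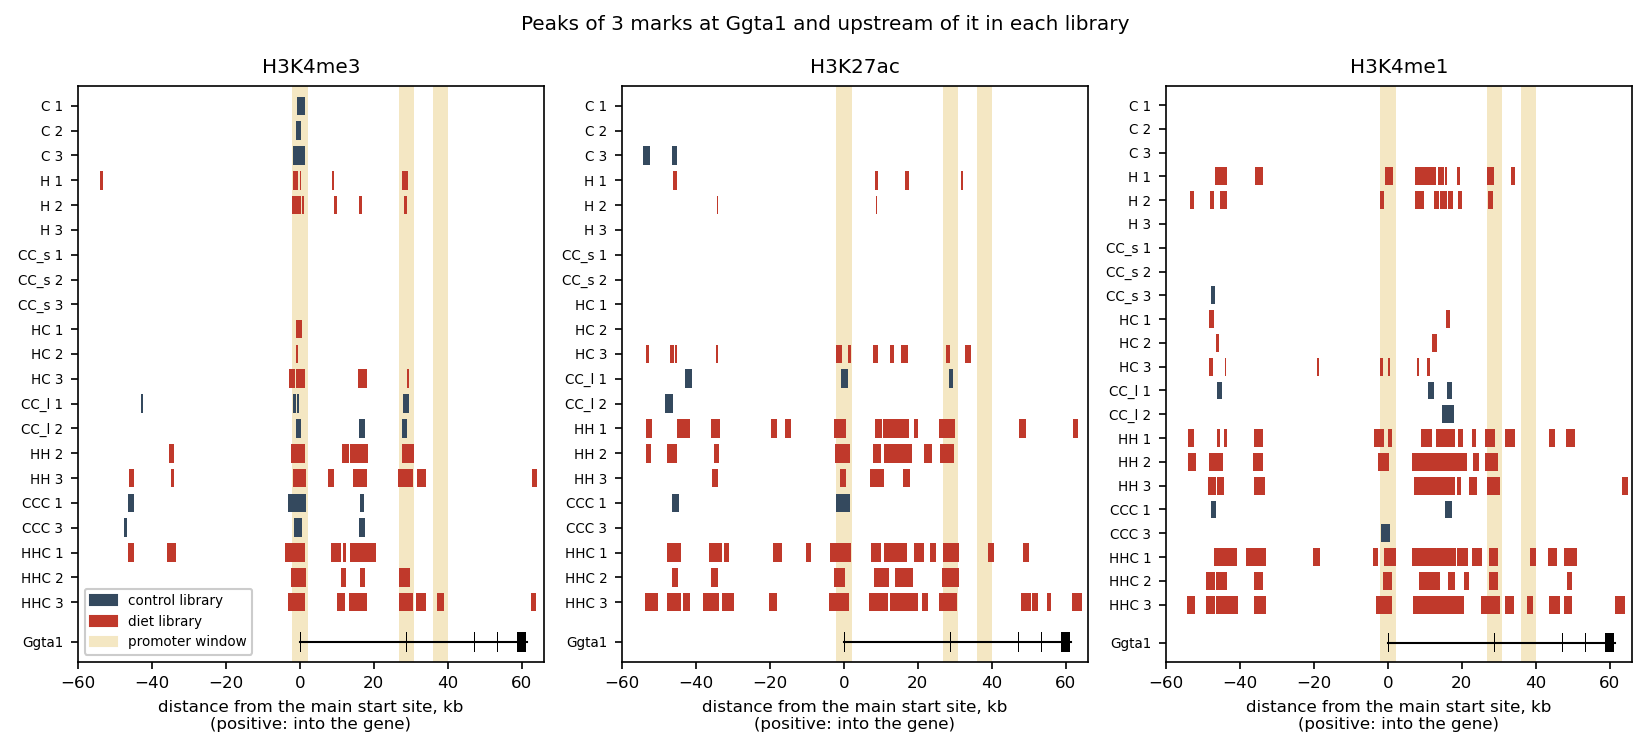
Peaks of H3K4me3, H3K27ac and H3K4me1 in each library (rows) from 60 kb upstream of the main start site to the end of the gene, as bars against distance in kb, with controls in dark blue, diet libraries in red, promoter windows shaded and exons in black. Diet peaks extend from the main window through intron 1 to the second window, most of all in HH and HHC. Most C and CC_s lists hold nothing beyond the H3K4me3 peak at the start site, while most CC_l and CCC lists hold further peaks.

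To set the gene's length against that of its peaks, the covered share was taken as the percent of the base pairs of the gene and its promoter windows that lay under a peak. Differences are diet minus control in percentage points, averaged over the age-matched pairs, and p-values are from two-sided exact permutation tests that relabel libraries within the pairs, adjusted by the Benjamini-Hochberg method over all genes touched by a peak of the mark.

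H3K4me1 rose across Ggta1 in the diet groups. It covered 0, 0 and 0% of the gene in C and 22.5, 16.2 and 0% in H. It covered 0, 0 and 0% in CC_s and 1.75, 1.86 and 3.64% in HC. H 3 stood apart from the other H libraries, and every HC library lay above every CC_s library by a few points. H3K4me1 covered 4.74 and 4.87% in CC_l and 35.5, 35 and 28.4% in HH. It covered 3.24 and 3.82% in CCC and 47.4, 23.5 and 48.5% in HHC. Neither 25-week pair overlapped. Such separation was seen in 1.36% of the 15761 genes for HC against CC_s, 12.0% for HH against CC_l and 19.7% for HHC against CCC, so in the 25-week cohort it was common.

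Over the 4 pairs the H3K4me1 share was 22% ± 17.6 (SD, n = 12) in diet and 1.67% ± 2.20 (SD, n = 10) in control libraries, a difference of 19.9 points (exact permutation p = 1.00e-04, adjusted p = 0.0168). The difference exceeded that of 98.7% of genes, and 2.27% of genes (357 of 15761) were higher in diet libraries at an adjusted p under 0.05. The adjusted p passed 0.05 when any 1 HH library was left out (0.0525 without HH 1, 0.0577 without HH 2 and 0.0527 without HH 3), and it was 0.0512 with equal numbers of peaks, 0.123 over promoter windows only and 0.129 with a replicate block. The obese groups alone (H and HH) differed from controls by 20.5 points (exact permutation p = 0.0200, adjusted p = 0.351), where 4.88% of genes were higher at an unadjusted p under 0.05. The weight-loss groups (HC and HHC) differed by 19.3 points (exact permutation p = 0.0400, adjusted p = 0.614), where 3.24% were higher. Neither of these smaller contrasts gave an adjusted p under 0.05 for any gene.

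H3K27ac covered 0% of Ggta1 in all 3 C and both CC_s libraries. It covered 3.87, 0.768 and 0% in H, and 0, 0 and 15.0% in HC. It covered 4.68 and 0% in CC_l and 29.6, 30.0 and 11.7% in HH, and 5.56 and 0% in CCC and 38.9, 24.9 and 44.5% in HHC. Every HH and HHC library lay above its controls, as in 8.62% and 25.8% of the 15789 genes, while H and HC overlapped theirs. The difference over the 4 pairs was 15.3 points (exact permutation p = 0.00520, adjusted p = 0.181), with means of 16.6% ± 16.4 (SD, n = 12) and 1.14% ± 2.27 (SD, n = 9). At an unadjusted p under 0.05, 5.80% of genes (916) were higher in diet libraries, and 0% at an adjusted p. H3K27ac at Ggta1 therefore did not pass the test over all genes. The obese contrast was 11.5 points (exact permutation p = 0.1, with 0.659% of genes higher at p under 0.05) and the weight-loss contrast 19.2 points (exact permutation p = 0.1, with 1.48% higher).

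H3K4me3 covered 3.43, 1.94 and 5.18% of the gene in C and 6.60, 8.69 and 0% in H. It covered 0, 0 and 0% in CC_s and 2.58, 0.795 and 9.37% in HC. C and H overlapped, and HC lay above CC_s, as in 1.13% of the 16919 genes. In CC_l it covered 4.38 and 6.46% against 20.9 and 24.4% in HH, and in CCC 7.25 and 6.23% against 21.4, 14.2 and 30.2% in HHC. Both 25-week diet groups lay above their controls, as in 36.8% and 22.2% of genes. The difference over the 4 pairs was 9.58 points (exact permutation p = 0.00367, adjusted p = 0.199), with means of 12.7% ± 10.3 (SD, n = 11) and 3.49% ± 2.85 (SD, n = 10). At an unadjusted p under 0.05, 6.35% of genes (1075) were higher, and 0% at an adjusted p, so H3K4me3 at Ggta1 did not pass either. The obese contrast was 9.42 points (exact permutation p = 0.1, with 0.0118% of genes higher at p under 0.05) and the weight-loss contrast 9.73 points (exact permutation p = 0.0250, with 3.92% higher).

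The treatment field of 4 H3K4me3 libraries (CC_l 2, HH 2, HH 3 and CCC 3) named another group than the title, and titles were used. With the treatment field the H3K4me3 difference was 1.41 points over the 4 pairs (exact permutation p = 0.689) and -3.24 points in the obese contrast (exact permutation p = 0.850), so the H3K4me3 values of the 25-week cohort rest on the titles. The other 3 marks do not depend on these labels.

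**Figure D3:**
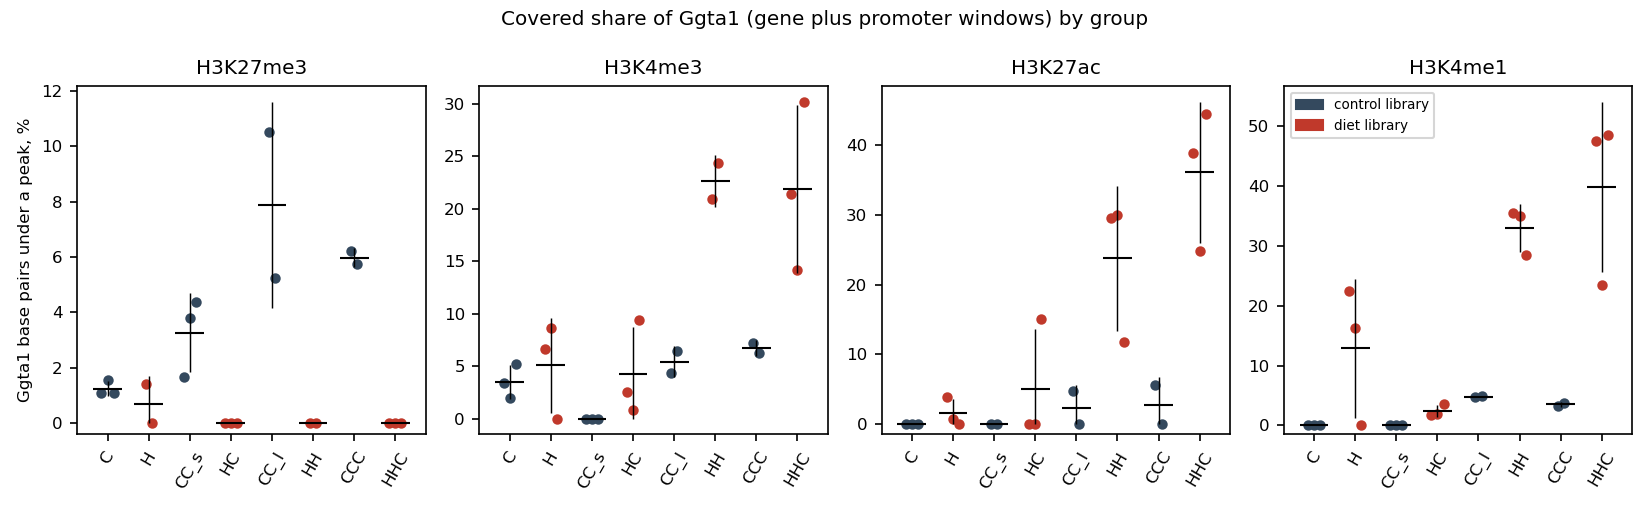
Percent of the base pairs of Ggta1 and its promoter windows under a peak (y axis, a scale for each mark) in each library by group (x axis), with controls in dark blue and diet libraries in red, bars at the group mean and lines of 1 SD either side. H3K27me3 is above 0 in every control and in 1 diet library, while for the other 3 marks HH and HHC reach the largest shares, up to 48.5% for H3K4me1 in HHC.

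The 2 cohorts differed in size of effect. For H3K4me1 the difference was 7.64 points in the 12-week cohort (exact permutation p = 0.0200) and 32.2 points in the 25-week cohort (exact permutation p = 0.01). For H3K27ac it was 3.28 (exact permutation p = 0.320) and 27.4 points (exact permutation p = 0.0200), and for H3K4me3 2.92 (exact permutation p = 0.15) and 16.2 points (exact permutation p = 0.0333). The difference between cohorts, tested by relabelling within all 4 pairs, was 24.6 points for H3K4me1 (permutation p = 0.0602), 24.1 for H3K27ac (permutation p = 0.0290) and 13.3 for H3K4me3 (permutation p = 0.0645), each with an adjusted p of 0.129 over 6 such tests. Duration of HFD, age and the libraries of each cohort cannot be told apart here. The weight-loss minus the obese effect was -1.16 points for H3K4me1 (permutation p = 0.935), 7.67 for H3K27ac (permutation p = 0.514) and 0.305 for H3K4me3 (permutation p = 0.967). A p of this size does not show that the effects were equal, and a single pair of 2 or 3 libraries a side cannot reach an exact p under 0.1.

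Most of the base pairs of Ggta1 under H3K27ac and H3K4me1 peaks in diet libraries lay in intron 1, while those under H3K4me3 peaks lay more often in the promoter windows. H3K27ac covered none of the intron 1 segment between the first and second windows in 9 of 9 control libraries and some of it in 9 of 12 diet libraries. The H libraries had 7.35, 1.97 and 0% of it covered, and the HC libraries 0, 0 and 18.2%. The HH libraries had 45.2, 50.3 and 23.7% covered, and the HHC libraries 54.3, 36.9 and 63.2%. H 3, HC 1 and HC 2 were thus like the controls. H3K4me1 was present in the segment in 11 of 12 diet libraries, on average over 35.6% of it, and in 3 of 10 controls, on average over 3.30%. For H3K4me3 the averages were 13.6% in diet and 1.69% in control libraries.

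These intron 1 values are parts of the covered share tested above, and the stretches below were picked after their values were seen, so they are described without a test. The stretch under the most H3K27ac lists, chr2:35452380-35452865, lies 8.58 to 9.07 kb after the main start site. It was under an H3K27ac peak in H 1, H 2, HC 3, all HH and all HHC libraries and in 0 of 9 controls. The peaks over it were 486 to 5140 bp wide (median 2216 bp) and ranked between the top 12.1% and the top 95.1% of their lists. H3K4me1 lay over the same stretch in 8 of 12 diet and 0 of 10 control libraries, H3K4me3 in 3 of 11 and 0 of 10, and H3K27me3 in none. From 12 to 17 kb into the gene H3K27ac was present in 8 of 12 diet and 0 of 9 control libraries and H3K4me1 in 10 of 12 and 3 of 10. Another non-coding transcript of the gene begins within that interval, 15.6 kb after the main start site. A coding transcript outside the basic annotation begins in intron 1, 19.3 kb after the main start site, and was given no promoter window. In the bin from 18 to 19 kb, H3K4me1 was present in 8 of 12 diet and 0 of 10 control libraries. H3K4me3 was present there in 5 of 11 and 0 of 10.

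Upstream of the gene, at chr2:35494450-35499449, 33 to 38 kb from the start site and outside annotated genes, H3K27ac was present in 8 of 12 diet and 0 of 9 control libraries and H3K4me1 in 7 of 12 and 0 of 10. H3K4me3 was present there in 4 of 11 and 0 of 10, and H3K27me3 in 0 of 10 diet and 2 of 10 control libraries. Farther out, at chr2:35505450-35510449, H3K4me1 was present in 11 of 12 diet and 3 of 10 control libraries and H3K27ac in 7 of 12 and 3 of 9. The long non-coding RNA gene Gm35202 (chr2:35503531-35506090) reaches into the near end of that region. The gene on which such upstream regions act is not given by these data.

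**Figure D4:**
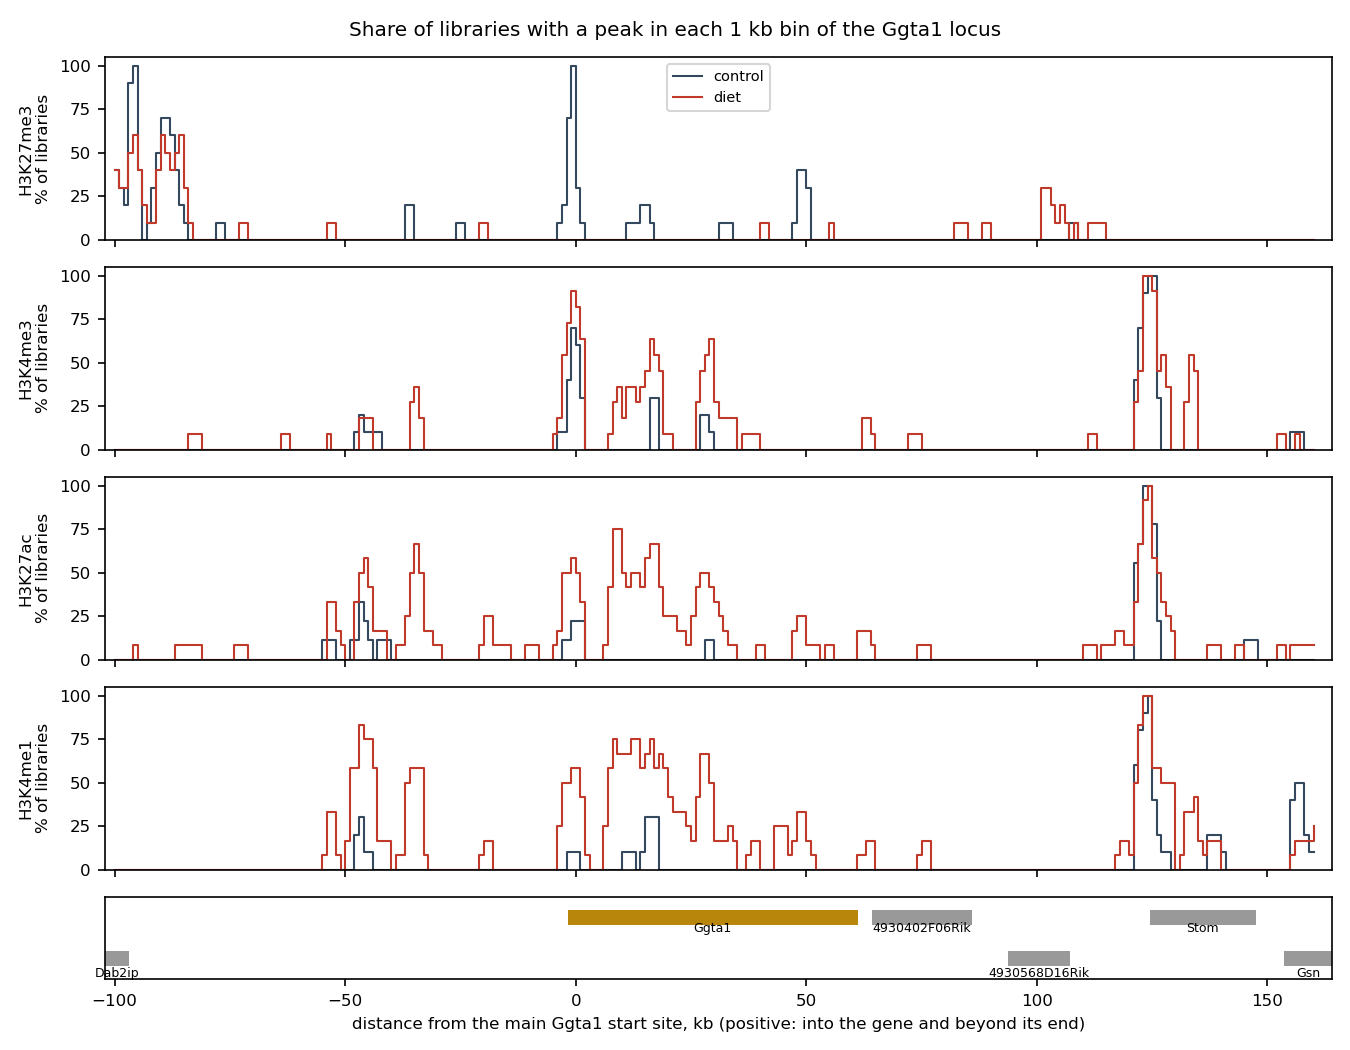
Percent of libraries with a peak in each 1 kb bin (y axis) against distance from the main Ggta1 start site in kb (x axis) for each mark, controls in dark blue and diet libraries in red, with the protein-coding genes of the locus drawn to scale at the bottom. The H3K27me3 bin just upstream of the start site stands at 100% of controls and 0% of diet libraries, H3K27ac in intron 1 reaches 75.0% of diet and 0% of control libraries, and the promoter of Stom, near 125 kb, is marked by the other 3 marks in both.

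No neighbour of Ggta1 reached an adjusted p under 0.05 for covered share. Over the 5 protein-coding genes within 100 kb, 4 were touched by peaks of the other 3 marks, and 0 passed in either direction for H3K4me3, H3K27ac or H3K4me1 (unadjusted, 1, 0 and 1 higher and none lower). No gene anywhere was higher at that threshold for H3K4me3 or H3K27ac, and 2.27% were for H3K4me1, so a count of 0 among 4 is near the background. Stom had H3K4me3, H3K27ac and H3K4me1 at its promoter in every library, and its covered share differed by 7.93 points for H3K4me3 (exact permutation p = 0.0127, adjusted p = 0.242) and 7.24 points for H3K4me1 (exact permutation p = 0.0406, adjusted p = 0.200). Gsn, which encodes the actin-severing protein gelsolin, differed by -6.15 points and Dab2ip by -0.734 points for H3K4me1 (exact permutation p = 0.212 and 0.776). The median differences of the 4 genes were -0.815, -1.17 and 0.743 points for H3K4me3, H3K27ac and H3K4me1, against 0.0220, 0.311 and 0.859 over all genes. 4930402F06Rik, immediately downstream, had peaks of the 3 marks at its promoter in 1 HH and 1 HHC library each and in no control. 4930568D16Rik had none in any library.

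Ggta1 belongs to the GT6 family of glycosyltransferases with Abo, which makes the A and B blood group antigens, Gbgt1, the Forssman glycolipid synthase, A3galt2, which makes isogloboside, and Glt6d1. None of the other 4 reached an adjusted p under 0.05 for any mark, but few could be tested. Peaks touched 3 of them for H3K27me3, 1 for H3K4me3, 2 for H3K27ac and 2 for H3K4me1. No gene anywhere passed for H3K4me3 or H3K27ac. For H3K4me1 2.27% of all genes were higher, and for H3K27me3 922 of 12692 were lower and 63 higher. Abo had H3K27me3 at its first promoter in 9 of 10 control and 4 of 10 diet libraries, with HHC at 3 of 3, HH and HC at 0 and H at 1 of 2. Its second promoter went the other way, with 1 of 10 control and 4 of 10 diet libraries. The H3K27me3 covered share of Abo differed by 0.907 points (exact permutation p = 0.784). Abo had no peak of the other 3 marks in any library. Gbgt1 had promoter H3K4me3 in 7 of 11 diet and 6 of 10 control libraries, H3K4me1 in 5 of 12 and 0 of 10, and H3K27me3 in 2 of 10 and 0 of 10. A3galt2 had promoter H3K4me1 in 2 of 12 diet libraries and no H3K27me3, and Glt6d1 had H3K27me3 in 2 of 3 HHC libraries and no other mark.

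A list of 19 genes that make, supply, extend, cap or bind the galactose acceptor was set beside it. For H3K4me1, 17 of the 19 were touched by peaks, 2 were higher in diet libraries at an adjusted p under 0.05 and 0 were lower (7 and 1 unadjusted). Over all genes 2.27% passed in that direction, and 2213 of 15761 were higher unadjusted. The list had a median difference of 3.99 points against 0.859 over all genes. B3gnt2, which builds the poly-N-acetyllactosamine chains on which α-Gal can be placed, rose by 16.6 points (exact permutation p = 2.50e-05, adjusted p = 0.0119). B4galt5, a lactosylceramide synthase, rose by 17.9 points (exact permutation p = 0.00135, adjusted p = 0.0454). B4galt4, another β-1,4-galactosyltransferase, had promoter H3K4me1 in every H and every HC library but not in C or CC_s. Of all genes, 129 showed that pattern for H against C and 47 for HC against CC_s. The second promoter window of B4galt4 held H3K4me1 in 11 of 12 diet and 3 of 10 control libraries. Those controls were 1 of 2 from CC_l and 2 of 2 from CCC, so the mark was not limited to diet libraries. The covered share of B4galt4 differed by 10.2 points (exact permutation p = 0.00323, adjusted p = 0.0649). For H3K4me3 19 genes and for H3K27ac 18 were touched and 0 passed in either direction (unadjusted, 3 higher and 1 lower, and 1 higher and 0 lower), with medians of 0.412 and 2.46 points against 0.0220 and 0.311 over all genes.

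The genes nearest to Ggta1 in H3K27me3 pattern varied in the other marks, and some were much like it. Rcsd1 and Rftn1 had promoter H3K4me3 in 10 of 11 diet and 7 of 10 control libraries, the counts of the main Ggta1 window. Rcsd1 had promoter H3K27ac in 8 of 12 and 1 of 9, and H3K4me1 in 8 of 12 and 2 of 10. Rftn1 had H3K27ac in 10 of 12 and 8 of 9, and H3K4me1 in 12 of 12 and 10 of 10. Rcsd1, which encodes a protein that binds the actin-capping protein CapZ, had covered shares 29.5 points higher for H3K4me1 (exact permutation p = 5.00e-05, adjusted p = 0.0138), and Rftn1 13.7 points higher (exact permutation p = 2.00e-04, adjusted p = 0.0228). Gm10160 differed by 38 points (exact permutation p = 0.00700, adjusted p = 0.0890) and B230104I21Rik by 7.49 points (exact permutation p = 0.0160, adjusted p = 0.126). Olfr47 had no peak of the other 3 marks in any library. For H3K4me3 and H3K27ac none of these genes had an adjusted p under 0.05, the smallest being 0.181.

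The labelled cell type was checked against markers. Promoters of 8 adipocyte genes (Adipoq, Plin1, Cidec, Lipe, Pparg, Lep, Fabp4 and Cebpa) carried H3K4me3 and H3K27ac in at least 5 of 8 in every library, and Pparg, Lipe, Fabp4 and Cebpa in all. Their covered shares were lower in diet libraries in 8 of 8 for H3K4me3 and 8 of 8 for H3K27ac, with none at an adjusted p under 0.05 for either mark. No gene anywhere was lower at that threshold for these marks. At an unadjusted exact permutation p under 0.05, 1172 of 16919 and 1140 of 15789 genes were lower. The median difference over all genes was 0.0220 and 0.311 points. For H3K4me1, Lipe (10.0 points) and Cebpa (4.93 points) were higher and the other adipocyte genes lower, none at an adjusted p under 0.05. For H3K4me3, Pparg, the gene of the main adipogenic transcription factor, was covered over 9.75% in diet and 15.6% in control libraries (-6.16 points, exact permutation p = 5.00e-04, adjusted p = 0.180), and Plin1, the gene of the lipid droplet protein perilipin-1, over 48.7% and 78.9% (-29.4 points, exact permutation p = 0.00454, adjusted p = 0.201). For H3K27ac, Lep, the gene of leptin, was covered over 37.4% and 88.8% (-50.8 points, exact permutation p = 0.00280, adjusted p = 0.159). Promoters of leukocyte and endothelial marker genes carried H3K4me3 and H3K27ac in more diet than control libraries for most of the genes. Of 8 macrophage and leukocyte genes, 0 to 3 carried promoter H3K4me3 in each control library, against 7 in every HH and HHC library, up to 8 in the H libraries (8, 7 and 0) and up to 5 in the HC libraries (5, 1 and 0). Ptprc, the gene of the leukocyte antigen CD45, was marked in 9 of 11 diet and 1 of 10 control libraries, Adgre1, the gene of the macrophage antigen F4/80, in 8 and 0, Lyz2 in 7 and 0, Csf1r in 8 and 2, Mrc1 in 6 and 0 and Itgam in 2 and 0. Tyrobp was marked in 8 and 4, and Cd68 in 8 of 11 and 8 of 10. For H3K27ac the list stood at 0 to 3 in controls, 2 to 7 in HHC, 3 to 5 in HH and 0 to 5 in the 12-week diet groups, with Itgam at 0 of 21 libraries. Of 6 endothelial genes, 0 to 4 had H3K4me3 in controls, 6 in HH, 3 to 5 in HHC and 0 to 6 in the 12-week diet groups, and 0 to 1 had H3K27ac in controls and 0 to 5 in diet libraries. Of 5 mesothelial genes, 0 to 3 had H3K4me3 in control and 0 to 2 in diet libraries. Of 5 stromal progenitor genes, 0 to 4 had H3K4me3 in both, and 0 to 3 had H3K27ac in control and 0 to 5 in diet libraries. For H3K4me1, endothelial Pecam1 and Cdh5 and stromal Ly6a were 12.2, 7.19 and 30.1 points higher in diet libraries. Their adjusted p was 0.0246, 0.0240 and 0.0375 (exact permutation tests). No other marker passed, while 2.27% of all genes were higher. For H3K27me3, Cdh5 differed by -7.60 points (exact permutation test, adjusted p = 0.0390) and Plin1 by 9.19 points (adjusted p = 0.0212). Of 12692 genes, 922 were lower and 63 higher at an adjusted p under 0.05. The part of other cell types and of the lower adipocyte shares in the Ggta1 values was not tested, and in bulk nuclei more cells of a type and more of the mark per cell cannot be told apart.

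The Ggta1 values could nevertheless be set beside the leukocyte list library by library. H 3 had 0 of 8 leukocyte, 0 of 6 endothelial and 0 of 5 stromal progenitor promoters with H3K4me3, and no Ggta1 peak of H3K4me3, H3K27ac or H3K4me1. Its lists for H3K4me3 (11249 peaks) and H3K27ac (12174 peaks over 9.60 Mb) were the shortest of those marks, and the part of list length in its values was not tested. HC 1 and HC 2 had 0 and 1 leukocyte, 2 and 1 endothelial, and 3 and 2 stromal progenitor promoters with H3K4me3. With H3K27ac, HC 1 and HC 2 each had 0 leukocyte, 0 endothelial and 0 stromal progenitor promoters. They had H3K4me3 at the main Ggta1 window (1632 and 503 bp), H3K4me1 in intron 1 (1109 and 1177 bp), no H3K27ac in the gene and no H3K27me3 at the promoter. HC 3, with 5 of 8 leukocyte promoters for H3K4me3, had the largest Ggta1 share of that group for all 3 marks. It also had the most peaks of that group for H3K4me3 (24506), H3K27ac (37143) and H3K4me1 (23477). Its H3K4me1 list nonetheless covered the fewest base pairs of that group, 16.2 Mb. The part of list length in the HC 3 values was not tested. Other libraries did not run with the leukocyte list. For H3K4me1, H 2 had 0 and H 1 had 1 of 8 leukocyte promoters, with 16.2 and 22.5% of Ggta1 covered. HHC 2 and CC_l 2 each had 2, with 23.5 and 4.87% covered. For H3K27ac, H 1 had 5 at 3.87% and HHC 2 had 2 at 24.9%. For H3K4me3, H 2 had 8 of 8 at 8.69%. The relation between marker counts and Ggta1 shares was not tested. In the H3K27me3 libraries 0 to 3 of the 8 leukocyte promoters carried H3K27me3 in controls and 0 to 4 in diet libraries.

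**Figure D5:**
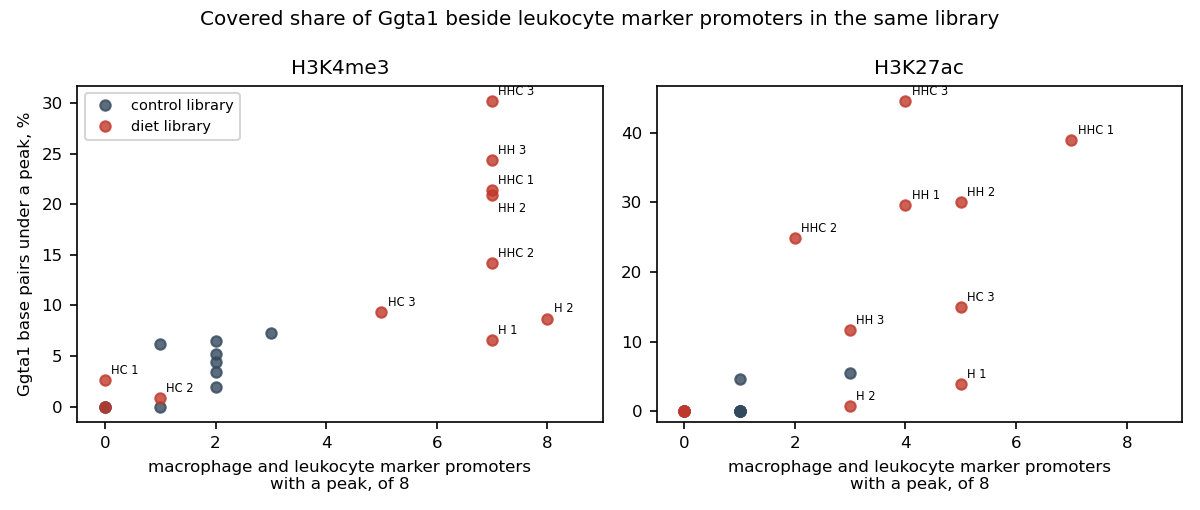
Percent of Ggta1 base pairs under a peak (y axis) against the number of 8 macrophage and leukocyte marker promoters with a peak in the same library (x axis), for H3K4me3 and H3K27ac, with controls in dark blue, diet libraries in red and diet libraries with Ggta1 peaks named. Diet libraries with the larger Ggta1 shares have 2 or more marker promoters marked, and those at 0% have none, together with HC 1 at a low H3K4me3 share, while HC 2, also low, has 1.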

How the data were processed

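The data are 84 CUT&Tag libraries of 4 histone marks from mouse epididymal adipose tissue. Each deposited file is a peak list of 1 library on GRCm38. Per the labels and the study's methods, the authors trimmed reads with Trim Galore 0.6.6, aligned them with Bowtie2 2.4.4, made coverage tracks with SAMtools 1.13 and bedtools 2.30, and called peaks on each library by SEACR 1.3 in stringent mode at a threshold of 0.01, which keeps about the top 1% of signal blocks. They removed blacklisted regions. The signal values in the deposited lists are the coverage summed over a peak and its highest coverage, as the authors' caller wrote them, with no stated scaling. The lists hold no read counts, so the depth of each library is unknown from them, the study's count model was not run, and a missing peak is not a missing mark. Libraries held 11249 to 46397 peaks over 8.54 to 133 Mb.

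Genes and start sites were taken from the GENCODE M21 basic annotation (21851 protein-coding genes, 41438 start sites). A promoter was the 2000 bp on either side of a start site and was marked when a peak overlapped it by at least 1 bp. The covered share of a gene is the percent of its base pairs, with its promoter windows, under peaks. Groups were compared by two-sided exact permutation tests within the 4 age-matched pairs, on every gene touched by a peak of the mark, with Benjamini-Hochberg adjustment over all of them (Python 3.11.15, numpy 2.4.6, pandas 2.3.3, scipy 1.17.1). The labels name biological replicates. Sequences were read from RefSeq (GRCm38.p6), and that of the stretch under H3K27me3 in the controls is not reported here.

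The locus, its gene lists and regions were chosen with earlier results of these data known. Besides Ggta1, the text names all protein-coding genes within 100 kb, the GT6 family, genes of the 19-gene acceptor list that passed the test or gained or lost a peak in at least 2 pairs, and the 6 genes most like Ggta1 in H3K27me3 promoter calls. Alternatives were equal numbers of peaks, the top 50% of peaks, promoter windows or gene body alone, scaling to the covered genome, other windows and overlaps, a replicate block, the treatment field, and each library left out.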

Additional observations from a re-analysis of the deposited data

Results flagged for a closer look

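The covered share of H3K27ac at Ggta1 differed between the cohorts. The diet minus control difference was 24.1 points larger after 25 weeks than after 12 weeks of HFD (permutation p = 0.0290, two-sided, adjusted p = 0.129 over 6 such tests), so it failed the correction. The difference was 27.4 points in the 25-week cohort, where 6 of 6 diet libraries lay above all controls of their age, and 3.28 points in the 12-week cohort, where 3 of 6 diet libraries and 0 of 5 controls had an H3K27ac peak in the gene. In the 25-week cohort the lists covered 76.7 to 109 Mb in diet and 20.9 to 94.3 Mb in control libraries, and in the 12-week cohort 9.60 to 34.7 Mb and 25.2 to 49.0 Mb. The part of list length in this difference was not tested.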

How the results depend on the processing

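The absence of read counts limits every value here, since a peak near the calling threshold can drop out of a shorter list. H3K27me3 was at the Ggta1 promoter in 100 percentage points more of the control than of the diet libraries, also with windows of 500 bp, with an overlap of at least 200 bp and without any 1 library. It was 90.0 points with windows of 5000 bp, which took in the wider peak of H 1, in intron 4, 80.0 points with equal numbers of peaks (8 of 10 controls, 0 of 10 diet) and 60 points in the top 50% of each list (6 of 10 and 0 of 10). The gene was chosen for this pattern, so leaving out a library could not change it. Narrower windows, a larger overlap or shorter lists could not add a diet peak, so the 0 of 10 was fixed in those settings. The H3K4me1 difference of 19.9 points was 15.9 with equal numbers of peaks (exact permutation test, adjusted p = 0.0512) and 24.5 over promoter windows only (adjusted p = 0.123). With 1 library left out in turn it ranged from 18.7 to 22 points, with adjusted p from 0.00938 to 0.0577, over 0.05 without any of the 3 HH libraries. Over the 6 other settings its exact p ranged from 1.00e-04 to 0.00391. With the treatment field the H3K4me3 obese contrast turned to -3.24 points (exact permutation p = 0.850). No other result changed direction or its side of an adjusted p of 0.05 in the settings tried. Left-out ranges were 8.54 to 10.5 points for H3K4me3 and 14.1 to 16.8 for H3K27ac over the 4 pairs.

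Numbers did not pair the samples: of 36 correlations between deviations of same-numbered libraries of paired groups (-0.636 to 0.339), 8 were over 0.1. With the replicate block the H3K4me1 difference was 22.5 points over 10 paired differences (exact sign-flip p = 0.00391, adjusted p = 0.129).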
